A study of Mus musculus with 98 samples.

Results

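The ends of a chromosomal break made by a zinc finger nuclease (ZFN) were compared between mouse pre-B cells without and with 53BP1. The cells without it were 1 line, LigaseIV-/- 53BP1-/- line C, set against 1 line, Ligase IV-/- line B, so both lack DNA ligase IV. Both are pre-B cell lines transformed with the Abelson kinase and held in G1, and the labels give no time after the break. All 6 ZFN libraries of these lines were taken, 3 from line C and 3 from line B, out of 49 libraries in the series, or 12 of its 98 read files. In HCoDES, a ligase for single-stranded DNA closes a broken end into a hairpin by joining its strands. After bisulfite treatment, PCR and sequencing, the hairpin shows where each strand stopped. For each line the authors deposited 1 table that pools its 3 libraries and lists end structures with their read counts. Line C had 556034 reads in 1631 structures, and line B had 623350 reads in 1187 structures, after structures with 1 read were dropped.

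When a double-strand break is not joined, nucleases can remove nucleotides from its ends, mostly from the strand that ends 5' (the 5' strand here, its partner the 3' strand), which leaves a 3' overhang. 53BP1, encoded by Trp53bp1, binds chromatin beside breaks and is known for protecting ends from this resection, with partners such as RIF1 and the shieldin complex. DNA ligase IV, encoded by Lig4, seals ends in non-homologous end joining, so ends in cells without it stay unjoined and can be read. A ZFN cuts with the FokI nuclease domain, which is known to leave a 5' overhang of 4 nt.

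An end structure is given here by the loss from each strand, in nt, counted from position 33, the 5' side of the cut. With a cut at position 33, an unchanged FokI end has lost 0 nt from its 5' strand and 4 nt from its 3' strand. Where the 3' strand has lost more than the 5' strand, the end has a 5' overhang. An end is called resected when at least 10 nt are gone from its 5' strand. Shares are percent of a table's reads, with exact Clopper-Pearson 95% intervals where they are given. Reads were amplified by PCR and carry no molecular identifiers, so they do not count independent molecules, and these intervals and the limits for counts of 0 cover counting error only.

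The groups differ in more than 53BP1. Line C carries the number 12 after the tag ZF and is labelled with sequencing set 7, and line B carries the number 11 and is labelled with set 8. Line, set, ZF number and genotype cannot be told apart. The average insert size that the authors list was 284 for line C and 403 for line B, with no unit, and its part in the results was not tested. With 1 pooled table a side, there is no spread between libraries or lines. Each Fisher's exact test below compares the reads of those pools and not the genotypes. The tables hold no reads from Trp53bp1 or Lig4 and no expression values, so neither the deletions nor the cell type could be checked.

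The tables also differ in how they list some ends. In line C's table the first structures already differ in overhang, whereas the first 29 structures of line B's table all have a 5' overhang of 4 nt. The Cas9 tables of Lig4-/- lines A and B open in the same manner, with 18 and 20 blunt structures. In 5 cases line C held reads in a structure with a 5' overhang of 6 or 8 nt and none in a structure of 4 nt with the same summed loss. Line B held reads in the 4-nt structure and none in the longer one. Each of these structures had at least 100 reads in its table, and together they held 2.20% of line C reads and 5.85% of line B reads. Of such pairs with at least 100 reads, only 1 lay outside the leading structures of line B. How ends that allow more than 1 listing were placed is not given in the sources used here. Main results that the listing can move are therefore also given with the 5 structures of line B listed as in line C. The other results are given as deposited only. The sum of the losses from both strands is the same under either listing.

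Ends in line C had lost far more DNA than ends in line B, and they had lost it from both strands. At least 10 nt were gone from the 5' strand in 85.6% of line C reads (interval 85.55 to 85.74) and, with an interval of 33.6 to 33.9, in 33.7% of line B reads. The 3' strand had lost as much in 91.1% of line C reads and 32.4% of line B reads. Both strands had done so in 85.3% of line C reads and 30.7% of line B reads. Ends with under 10 nt lost from each strand were 8.56% of line C reads and 64.6% of line B reads. Over the 20 shares compared, all 20 passed two-sided Fisher's exact tests with Benjamini-Hochberg adjustment, 17 with a p that a computer's double precision writes as 0. With so many reads, passing says little, and the sizes carry the comparison.

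The loss had 2 separate ranges in line C. Near the break, 8.92% of line C reads had lost 0 to 4 nt from the 5' strand, against 46.0% of line B reads. With line B listed as in line C, line B was at 41.6%. Between 30 and 49 nt, the share was 0.711% in line C and 3.07% in line B. Ends with 70 to 169 nt lost then held 74.99% of line C reads and 4.57% of line B reads. The fullest bin of 20 nt in line C, 130 to 149 nt, held 28.7% of its reads. In the bins used here, line C was lower than line B up to 49 nt and higher from 50 to 169 nt.

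The 5' strand had a median loss of 116 nt in line C and 4 nt in line B. At the lower quartile the loss was 70 nt in line C and 2 nt in line B, and at the 90th percentile it was 150 nt in line C and 44 nt in line B. The median loss from the 3' strand was 120 nt in line C and 6 nt in line B, in each table close to the median of the 5' strand. The losses of both strands together averaged 197.8 nt in line C and 41.6 nt in line B. Summed loss of 20 nt or more, which does not depend on the listing, was present in 87.2% of line C reads and 33.0% of line B reads. Summed loss of 100 nt or more was present in 79.4% of line C reads and 9.43% of line B reads.

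At the far edge the order turned. Ends with at least 170 nt gone from the 5' strand held 0.0910% of line C reads and 4.29% of line B reads. In line B, 3 structures held 50% of those 26728 reads, and 1 structure, with a 3' overhang of 19 nt and 180 nt lost, held 0.727% of the table and no read in line C. The largest 5'-strand loss listed was 184 nt in line C and 185 nt in line B, and whether longer losses could have been amplified was not tested.

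**Figure D1:**
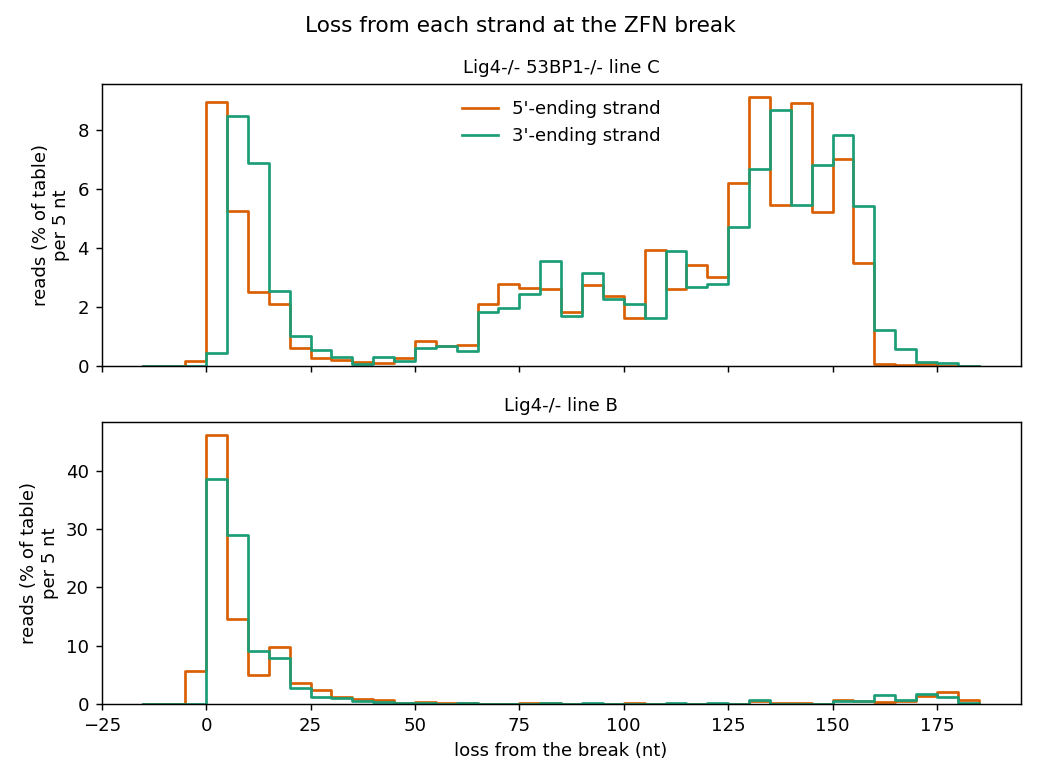
Share of reads (percent of the table) in bins of 5 nt, by loss from the break in nt, for the 5' and the 3' strand, with line C above and line B below on separate vertical scales. Line C has a peak near the break and a broad second range with 74.99% of its reads between 70 and 169 nt of 5'-strand loss. Line B has most reads within the first 20 nt.

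The gap was much smaller when read counts were set aside. With each structure counted once, resected structures were 92.5% of line C's structures and 87.6% of line B's, and the median 5'-strand loss was 95 nt in line C and 78 nt in line B. That count gives structures with few reads full weight. From 70 to 169 nt of 5'-strand loss, the median was 18 reads a structure in line C and 3 in line B. With the 10 most abundant structures left out of each table, resected ends held 88.5% of line C reads and 54.8% of line B reads. The 10 largest structures of line B lie near the break, so that setting lowers its unresected share by construction.

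Even the ends that stayed near the break differed. Where the 5' strand stopped within the 4 nt of the overhang expected from a cut at position 33, at positions 33 to 37, the 3' strand stopped deeper in line C. Of these ends, 54.2% in line C and 2.52% in line B had a 5' overhang of 5 nt or more, longer than the one FokI leaves. With the 5 structures of line B listed as in line C, its value was 5.56%. The long overhangs of line C were not spread over all these stops. They were 88.9%, 90.2% and 70.9% of its ends at positions 33, 34 and 37, but 2.60% and 4.55% at positions 35 and 36.

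The larger loss from the 3' strand, unlike the long overhangs, is seen at each stop of the 5' strand. At position 36, where line B has the same reads under both listings, the 3' strand had a median loss of 6 nt in line C and 3 nt in line B. At position 37 the median was 10 nt in line C and 6 nt in line B, and at position 35 it was 5 nt in line C and 3 nt in line B. Over the 6 stops from 32 to 37, line C had the larger median at each, also with line B listed as in line C. Ends that reached into the first 4 nt on the 3' strand, at positions 33 to 37, held 0.431% of line C reads and 38.6% of line B reads. With line B listed as in line C, line B was at 33.9%. The 3' strand had thus nearly always lost 5 nt or more in line C.

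The end that FokI leaves, if the cut is at position 33, was the structure most open to the listing. A 4-nt 5' overhang at position 33 had 0 of 556034 reads in line C, which allows a share of up to 0.000540%, and 29134 reads in line B, or 4.67%. Line C instead listed 788 reads, 0.142%, for the structure 1 nt away on each strand, where line B had none. Set against each other, these pairs differ 33.0-fold. With position 37 taken as the cut instead, the 4-nt 5' overhang there held 0.405% of line C reads and 2.76% of line B reads. All structures with the summed loss of an unchanged end, 4 nt, held 0.154% of line C reads and 7.87% of line B reads. At a summed loss of 0 nt, line C had 0.0180% and line B 5.69%. The share in line C was below that in line B at every summed loss from 0 to 23 nt other than 16 nt, where both were 1.01%.

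**Figure D2:**
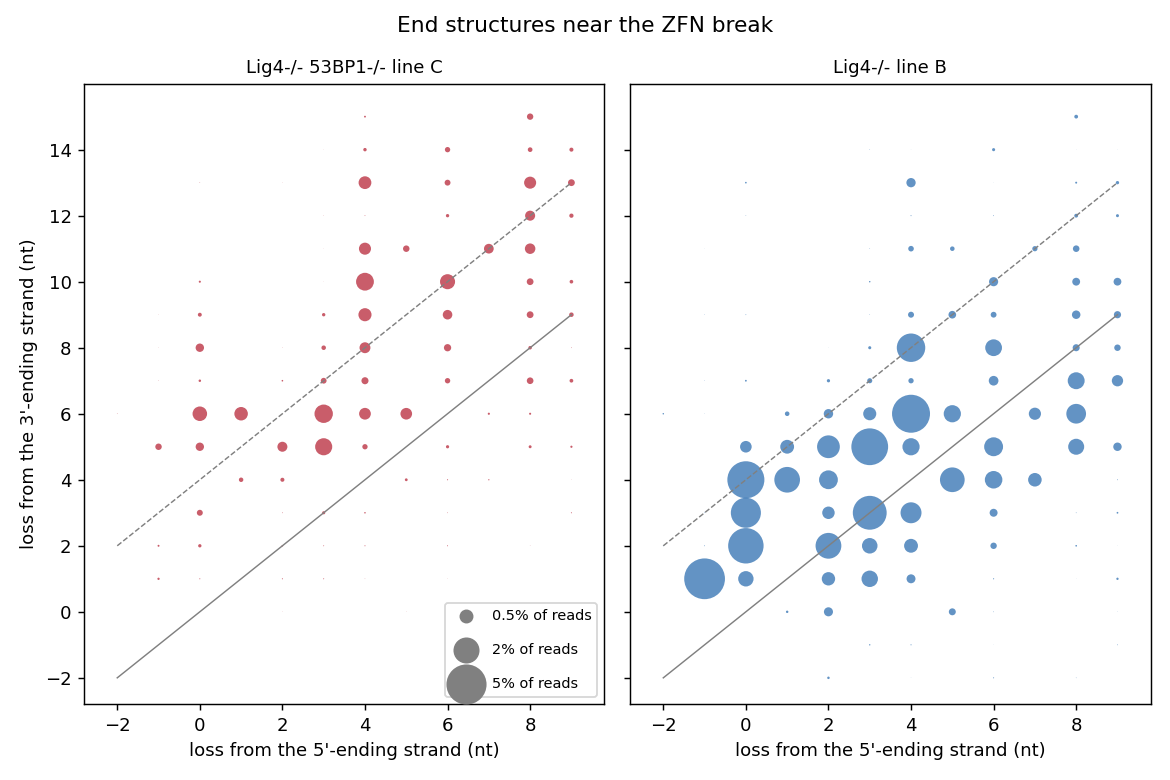
End structures near the break in line C (left) and line B (right), by loss from the 5' strand (horizontal, nt) and from the 3' strand (vertical, nt), with circle area for the share of reads. The solid line marks blunt ends and the dashed line 4-nt 5' overhangs. Line C has large circles above the dashed line, where line B has few, and circles at 4-nt overhangs depend on the listing described in the text.

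Line C had more 5' overhangs than line B, and among resected ends the commoner kind of overhang was opposite in the tables. Of all reads, 73.6% in line C and 51.2% in line B had a 5' overhang, and 18.9% in line C and 39.4% in line B had a 3' overhang. Blunt ends held 7.50% of line C reads and 9.47% of line B reads. Resected ends made up 332635 of the 409471 reads with a 5' overhang in line C, but 41104 of 318967 in line B. Among resected ends alone, 5' overhangs held 69.9% in line C (interval 69.7 to 69.98) and, with an interval of 19.4 to 19.7, 19.5% in line B. The 3' overhangs held 21.6% of resected reads in line C and 71.7% in line B, and blunt ends held 8.58% in line C and 8.76% in line B (adjusted p = 0.0173, Fisher's exact test). With each structure counted once, 5' overhangs were 52.4% of resected structures in line C and 40.9% in line B. With the 10 most abundant structures left out of each table, 5' overhangs of all ends held 70.8% in line C and 30.8% in line B. Those of line B were mostly 5' overhangs, so that setting lowers its share by construction.

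Over all reads, the rise in 5' overhangs lay in the long ones. Those of 5 to 9 nt held 29.1% of line C reads and 2.08% of line B reads, 13.99 times as much in line C. With line B listed as in line C, they held 7.93% of line B reads. Those of 10 nt or more held 5.05% of line C reads and 0.645% of line B reads. Over all reads, short 5' overhangs of 1 to 4 nt were fewer in line C, at 39.5%, than in line B, at 48.4%. With line B listed as in line C, line B was at 42.6%. The order turned when the 10 most abundant structures were left out of each table, to 38.7% in line C and 26.3% in line B. Those of line B were mostly such short 5' overhangs, so that setting lowers its share by construction. Among resected ends, each length from 1 to 4 nt was more frequent in line C. There, 1-nt 5' overhangs held 5.42% in line C and 2.44% in line B, and 4-nt ones held 9.08% in line C and 1.01% in line B.

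On the 3' side the fall was in short and middle lengths. Overhangs of 1 to 4 nt held 14.5% of line C reads and 28.3% of line B reads. Those of 5 to 9 nt held 1.64% in line C and 7.14% in line B, and those of 10 to 19 nt held 1.13% in line C and 2.46% in line B. For the last class the gap was nearly all at the far edge: without ends of at least 170 nt loss, line C was at 1.13% and line B at 1.23%. Long 3' overhangs of 20 nt or more, the form that removal of the 5' strand alone leaves, held 1.56% of line C reads and 1.45% of line B reads (adjusted p = 1.61e-07, Fisher's exact test). The sign of that last gap changed with each structure counted once, at 8.15% in line C and 10.9% in line B.

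Single lengths show the shift. The most frequent overhang was a 5' overhang in both tables, of 3 nt in line C (13.2% of reads) and of 2 nt in line B (23.4%). A 5-nt 5' overhang held 11.7% of line C reads and 1.29% of line B reads, and a 9-nt one held 4.12% in line C and 0.307% in line B. Among resected ends the median 5' overhang was 4 nt in line C and 3 nt in line B, and the median 3' overhang was 2 nt in line C and 4 nt in line B. Overhangs of both kinds were thus mostly short: far from the break, both strands ended within a few nt of each other.

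**Figure D3:**
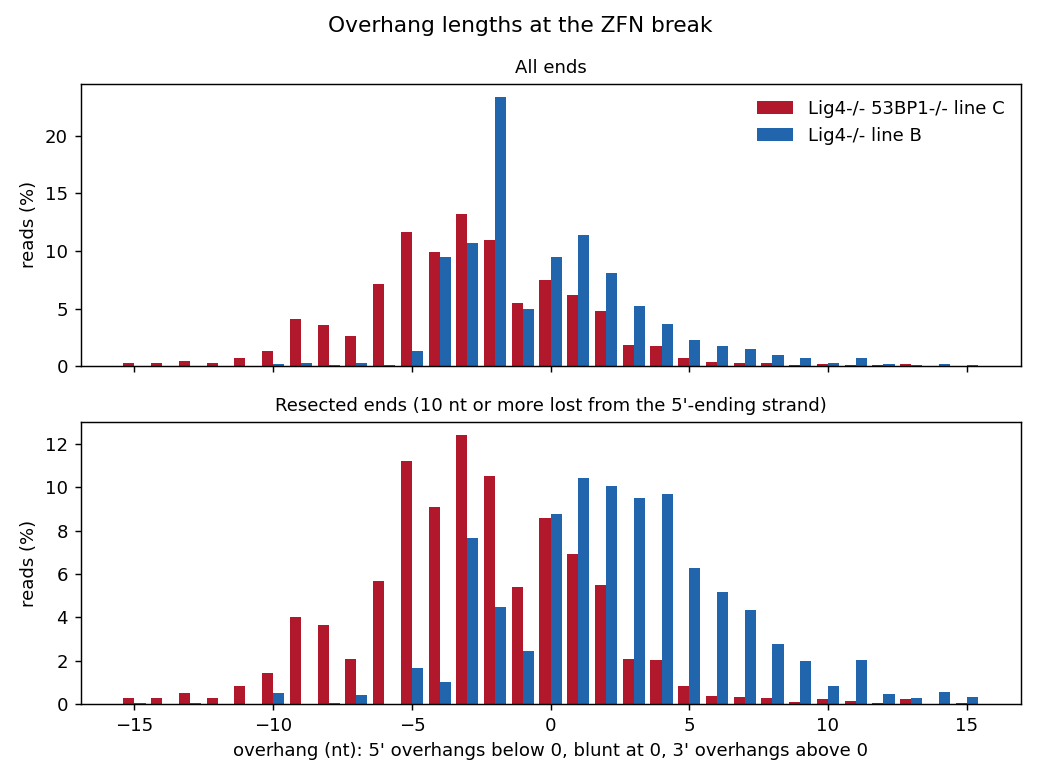
Share of reads (percent) at each overhang length in nt, with 5' overhangs below 0, blunt ends at 0 and 3' overhangs above 0, for all ends (top) and for resected ends (bottom). Line C bars stand left of line B bars. Among resected ends line C has its highest bar at a 3-nt 5' overhang and line B at a 1-nt 3' overhang.

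Resected ends lay at other distances in line C than in line B, so polarity was also compared at matched distance. In each of the 9 bins of 5'-strand loss from 10 to 169 nt that held at least 20 structures in both tables, 5' overhangs took a larger share in line C. The shares ran from 62.7% to 77.7% in line C and from 8.15% to 55.2% in line B. Line B had its 2 highest bins far inside, at 130 to 149 nt and 150 to 169 nt, and there the lines were closest. Binning by the 3' strand or by the midpoint of both strands gave a higher share in line C in 9 of 9 bins as well. With equal weight to 8 bins of 20 nt, 5' overhangs held 69.5% of resected reads in line C and 26.1% in line B. Ends that started outside position 33 had the other order, with 97.2% 5' overhangs in line C and 99.8% in line B, on 0.188% of line C reads and 5.72% of line B reads. So did ends with at least 170 nt lost from the 5' strand. They had 0% 5' overhangs in line C and 38.8% in line B, on 506 reads in line C and 26728 in line B. The polarity gap was therefore present in each bin from 0 to 169 nt.

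**Figure D4:**
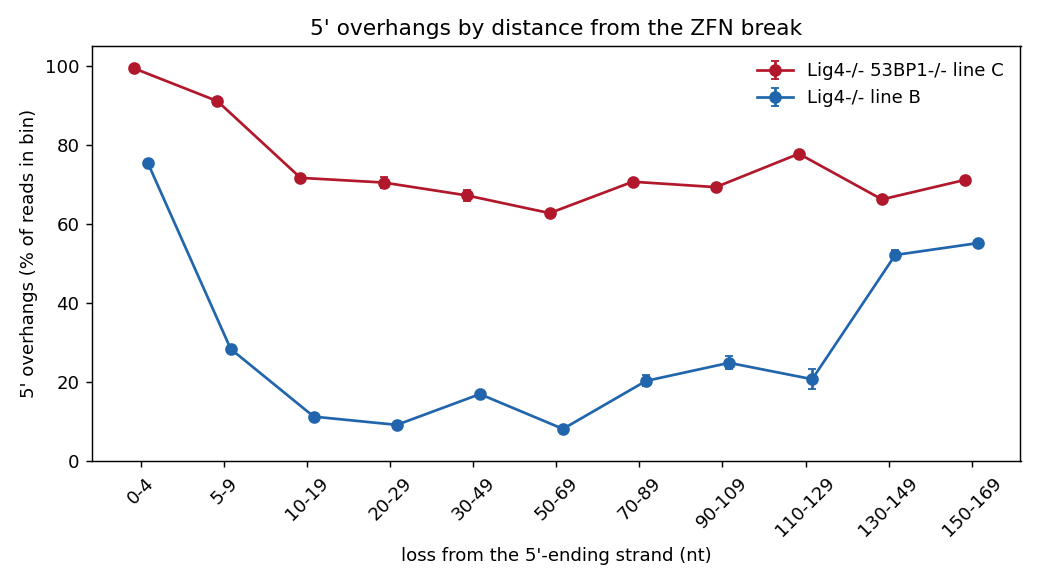
Share of 5' overhangs (percent of the reads in a bin, with exact 95% intervals for counting error) by loss from the 5' strand in nt, for bins from 0 nt on with at least 20 structures in both tables. Line C lies above line B in every bin drawn, and beyond 10 nt line B is highest in the bins from 130 nt on.

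Line C also had a more even spread of structures. Its largest structure held 1.22% of reads and its 10 largest 9.70%, against 5.66% and 38.4% in line B. It took 117 structures to hold 50% of line C reads and 19 to hold 50% of line B reads. The effective number of structures, the exponential of the Shannon entropy, was 485 in line C and 119 in line B. Within the first 10 nt of 5'-strand loss the tables were alike in this respect, with 37.8 effective structures in line C and 34.0 in line B. From 70 to 169 nt, line C had 344.1 effective structures and line B 48.3, where 12 structures held 50% of the few reads in line B and 91 held 50% in line C. The tables shared 679 structures, which were 41.6% of those in line C and 57.2% of those in line B.

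Single structures were compared by the ratio of their shares, with no test, since each line has 1 table. Of 669 structures with at least 0.05% of reads in either table, 433 were at least 4-fold higher in line C (64.7%) and 183 at least 4-fold lower (27.4%). A structure missing from a table was set to 3 reads there, and 192 of the 669 were missing from line B and 32 from line C, so they entered through the other table alone. Structures with few reads in 1 table, under 0.05%, also entered through the other alone. Such structures tend to be called in favour of the table they entered through. The counts below therefore partly restate the shares of reads given above. By overhang, the higher share was 106 of 117 for 5' overhangs of 5 to 9 nt and 27 of 31 for those of 10 nt or more. With line B listed as in line C, it was 103 of 117 for 5' overhangs of 5 to 9 nt. Among 3' overhangs of 5 to 9 nt, 43 of 53 were lower in line C. Blunt structures, with 38 of 54 higher, lay near the background of all structures.

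By place, 203 of 212 structures with 110 to 149 nt of 5'-strand loss were at least 4-fold higher in line C, and 86 of 121 with 10 to 29 nt were at least 4-fold lower. Line B held 0.173% of its reads at 110 to 129 nt and 1.08% at 130 to 149 nt. Most of those 212 structures could thus enter only through line C, and their count restates its larger share of reads there. Of 57 structures with under 10 nt lost from each strand, 41 were lower and 6 were higher in line C. Those 6 were among the 8 near structures with a 5' overhang of 5 nt or more, and 3 of them are listing pairs with no read in line B. With line B listed as in line C, 3 of those 8 were higher and 1 was lower, and 3 of 53 near structures were higher in all. All 21 near structures with a 3' overhang were lower. Among resected structures, 266 of 303 with a 5' overhang were higher, while those with a 3' overhang split into 114 higher and 118 lower of 239. Those splits of 3' overhangs, 47.7% higher and 49.4% lower, stand against 64.7% and 27.4% over all structures, so they lie on the lower side of the background.

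The largest structure of line C was a 5-nt 5' overhang whose 5' strand had lost 134 nt. It held 6799 reads in line C and 20 in line B, or 1.22% against 0.00321%. Other 5-nt 5' overhangs followed: one with 141 nt lost had 5869 reads in line C and 7 in line B, and one with 140 nt lost had 4884 reads in line C and 7 in line B. An 8-nt 5' overhang with 133 nt lost held 0.854% of line C reads and 0.000321% of line B reads. Of the 10 largest rises, 8 lay 130 nt or more inside, and all 10 were 5' overhangs.

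The other 2 large rises were near the break and depend on the listing. A 6-nt 5' overhang with 4 nt lost held 6006 reads, 1.08%, in line C and none in line B, whose 4-nt structure of the same summed loss held 1246 reads, 0.1999%. These pairs differ 5.40-fold. A 6-nt 5' overhang with 0 nt lost held 4004 reads, 0.720%, in line C and none in line B. The matching 4-nt structure held 4055 reads, 0.651%, in line B and none in line C, so this pair shows hardly any rise. Outside these pairs, a 3-nt 5' overhang with 3 nt lost held 1.15% of line C reads and 0.583% of line B reads. A 4-nt one with 6 nt lost held 0.772% in line C and 0.284% in line B, so some structures near the break held more reads in line C.

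All 10 of the largest falls lay within 4 nt of the break on the 5' strand. The most abundant structure of line B, a 2-nt 5' overhang that starts 1 nt outside position 33, held 100 reads in line C and 35287 in line B, or 0.0180% against 5.66%. A 2-nt 5' overhang with 4 nt lost held 0.469% of line C reads and 4.92% of line B reads, and a 2-nt one with 0 nt lost held 0.0378% in line C and 4.28% in line B. The blunt end with 3 nt lost from both strands held 0.0326% in line C and 3.91% in line B, and the blunt end with 2 nt lost held 0.00791% in line C and 2.27% in line B. Leaving out the FokI end, whose listing differs, the largest falls were 4.63-fold to 314.8-fold.

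The largest members of the other classes show how far they reached. The leading blunt end of line C had lost 144 nt from both strands, at 0.599% in line C and 0.00128% in line B. The leading 3' overhang there, of 2 nt with 136 nt lost, held 0.715% of line C reads and 0.000642% of line B reads. The leading 5' overhang of at least 10 nt was 10 nt long with 134 nt lost, at 0.366% in line C and 0.000321% in line B. In line B the leading 3' overhang of 1 to 4 nt was 1 nt long with 5 nt lost, at 0.0272% in line C and 2.08% in line B. The leading 3' overhang of 5 to 9 nt in line B was 5 nt long with 17 nt lost, at 0.0252% in line C and 0.371% in line B.

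Stops of the 5' strand repeated at certain positions. In line C the most used were position 37, with 3.95% of line C reads and 11.7% of line B reads, and position 167, with 3.50% in line C and 0.147% in line B. Positions 173, 183 and 184 came next in line C. In line B the most used was position 33, with 1.45% of line C reads and 13.3% of line B reads, and then positions 37, 36, 35 and 32. That order depends on the listing. With line B listed as in line C, position 33 held 9.60% of its reads, below positions 37 (11.9%), 36 (10.98%) and 32 (10.3%). Position 37 was thus high in both tables. Of the 100 positions with 70 to 169 nt of loss, 87 held a larger share in line C, against 21 of 60 with 10 to 69 nt and 0 of 10 with 0 to 9 nt. These counts largely restate the totals, since 70 to 169 nt held 74.99% of line C reads and 4.57% of line B reads.

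The rank order of those 100 positions was little alike in the tables (Spearman's rho = 0.17 for the 5' strand and 0.32 for the 3' strand). Positions share the DNA sequence and the listing, and line B has few reads there. Among the 10 positions with 0 to 9 nt of loss, rho was 0.65 for the 5' strand and 0.24 for the 3' strand. These values describe the tables and have no test.

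The same measures were taken where 53BP1 loss was measured at other breaks, which RAG cuts at the immunoglobulin kappa gene segment Jk1 and at a recombination substrate. Loss was counted from position 2 at these breaks, and from position 37 at the Cas9 break, which was measured in Lig4-/- lines only. The resected share was 51.9 points higher in line C than in line B at the ZFN break. At Jk1 it was 30.2 to 52.2 points higher in 53BP1-deficient line B than in the Lig4-/- lines A and B. At the substrate it was 38.4 to 41.5 points higher in 53BP1-deficient lines B and C than in the same Lig4-/- lines. At breaks measured in both lines of a genotype, their resected shares differed by 0.993 to 22.0 points over 4 such pairs, less than the gap at the ZFN break. By their labels, all but the Cas9 pair differ in more than the line. At both RAG breaks, libraries of Lig4-/- line B carry the tag shNT, and those of Lig4-/- line A do not. Its meaning is not given in the sources. Of the 53BP1-deficient lines, C carries this tag in its substrate libraries and B does not. Their sequencing sets there are 6 and 4. RAG labels of these lines give a time except for line C, and the ZFN labels give none. What this adds to the gaps was not tested.

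Among resected ends, 5' overhangs held 69.9% in 53BP1-deficient line C and 19.5% in Lig4-/- line B at the ZFN break, a gap of 50.3 points. The gap was 35.0 to 36.5 points at Jk1 and 10.5 to 39.97 points at the substrate, while lines of 1 genotype differed by 1.495 to 20.7 points. The same line C had 40.2% at the substrate. The ZFN gaps in all 3' overhangs, at 18.9% in line C against 39.4% in line B, and in 5' overhangs of 1 to 4 nt were no larger than gaps seen between lines of 1 genotype elsewhere, which reached 21.8 and 15.78 points. The gap in 5' overhangs of 5 to 9 nt, 26.97 points, exceeded the largest such gap, 7.66 points. For all blunt ends and for 3' overhangs of 5 to 9, 10 to 19 and 20 nt or more, the ZFN gap was likewise no larger than the largest of those gaps.

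Long 5' overhangs of 10 nt or more were rarer at the ZFN break. They held 5.05% of reads in 53BP1-deficient line C there, against 24.3% in 53BP1-deficient line B at Jk1 and a mean of 23.98% in lines B and C at the substrate. In Lig4-/- line B at the ZFN break they held 0.645%, against means of 2.89% at Jk1 and 3.29% at the substrate in Lig4-/- lines A and B. The breaks differ in sequence, nuclease and amplified window, and their differences were not tested.

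**Figure D5:**
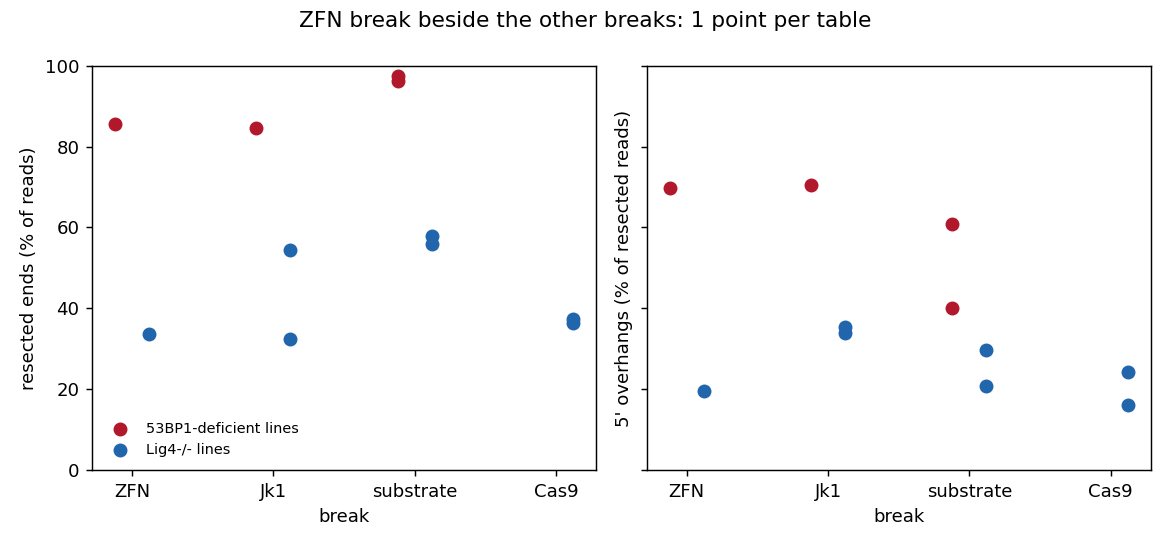
Resected ends (percent of reads, left) and 5' overhangs among resected ends (percent of resected reads, right) in each table of a 53BP1-deficient or Lig4-/- line, by kind of break, with 1 point per table. No 53BP1-deficient line is drawn for Cas9. The 53BP1-deficient points lie above the Lig4-/- points at the ZFN, Jk1 and substrate breaks in both panels.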

How the data were processed

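HCoDES libraries were sequenced on an Illumina MiSeq, per the labels. The authors deposited 1 table a group, with read counts that are not normalised and that pool 3 libraries, beside a position and an overhang per structure. The genome build is not given in the sources used here, and neither are aligner or filters. No coordinates or sequence are printed. The position was read as the 5'-ending strand's stop, and the 3'-ending strand's as position minus overhang. The sign was taken from the KpnI control, an enzyme that leaves 3' overhangs, where 99.2% of reads have the value 4. Units of position and overhang are not named per the file headers, and both were taken as nt. Structures with 1 read were dropped (617 in line B, none in line C).

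Shares and Clopper-Pearson intervals used scipy 1.17.1, with numpy 2.4.6, pandas 2.3.3, Python 3.11.15 and, for plots, matplotlib 3.10.9. Fisher's exact tests were two-sided, adjusted by Benjamini-Hochberg over 20 shares, at a threshold of 0.05. Structures named are the 10 largest of each table, the 10 largest rises and falls in points, and the largest of each overhang class, and positions the 5 most used per table. The 5 listing pairs were chosen after their values were seen. Members, measures and rules were chosen with earlier results of these data known. The calculations were tested on simulated data.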

Additional observations from a re-analysis of the deposited data

Results flagged for a closer look

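At the ZFN break, 5' overhangs of 1 to 4 nt moved opposite to Jk1. They differed by -8.91 points at the ZFN break, with 39.5% of reads in 53BP1-deficient line C and 48.4% in Lig4-/- line B. At Jk1 they held 22.2% in 53BP1-deficient line B and a mean of 16.1% in the Lig4-/- lines. At the substrate they held 6.16% in 53BP1-deficient line C and 21.9% in 53BP1-deficient line B, against 12.9% and 15.6% in Lig4-/- lines A and B. Line C was thus lower there too, and it was not measured at Jk1, so line and break cannot be told apart in this contrast. The difference between the breaks was not tested. The ZFN gap was -3.06 points with line B listed as in line C, and 12.3 points with the 10 most abundant structures left out of each table. Among resected ends at the ZFN break, 5' overhangs of each length from 1 to 4 nt were more frequent in line C than in line B.

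At the ZFN break, 3' overhangs of 10 to 19 nt moved opposite to both RAG breaks. They differed by -1.33 points, with 1.13% in 53BP1-deficient line C and 2.46% in Lig4-/- line B. They held 4.15% in 53BP1-deficient line B and a mean of 1.501% in Lig4-/- lines at Jk1, and means of 11.3% in 53BP1-deficient lines and 5.97% in Lig4-/- lines at the substrate. The differences between breaks were not tested, and the ZFN gap was -0.100 points without ends of at least 170 nt loss.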

How the results depend on the processing

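Differences below are line C minus line B, in percentage points. Of 192 values of the 20 shares under other settings, 173 kept their direction and, where tested, their side of the threshold, and 7 of the 20 shares had any change. The values with equal weight to bins have no test and were judged by direction alone. Blunt ends among resected ends changed sign with reference position 37 (1.06), thresholds of 5 nt (1.37) and 20 nt (3.84) and without the 10 most abundant structures (0.437), and no longer passed without the most abundant one (-0.0512, adjusted p = 0.488, Fisher's exact test). Without the 10 most abundant structures, all blunt ends (2.95), 5' overhangs of 1 to 4 nt (12.3) and 3' overhangs of 20 nt or more (-0.615) also changed sign. Counting each structure once turned 3' overhangs of 20 nt or more to -2.71. It left these shares short of the threshold: the 4-nt 5' overhang at position 33 (-0.0842), blunt ends (-0.717), 5' overhangs of 1 to 4 nt (-2.997), 3' overhangs of 1 to 4 nt (-0.477) and of 5 to 9 nt (-2.10), and blunt ends among resected ends (-0.895). Fewer items are tested then, by construction. The 4-nt 5' overhang at position 33 differed by 0 without the 10 most abundant structures, with line B listed as in line C and without its leading structures, since each removes its reads from line B. Leaving out those leading structures also left 3' overhangs of 20 nt or more at 0.0277. Structures at least 4-fold higher numbered 267 with a share minimum of 0.1%, and those lower numbered 299 with 0.01%, where more or fewer structures enter by construction. The alternative listing, the omission of leading structures and of far ends, and the equal weight to bins were chosen after seeing the data. The count of each structure once does not apply to the share of the 10 most abundant structures. No paired analysis was possible because each table pools its libraries.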
